A study of Mus musculus with 12 samples.

Results

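The 44 genes described here act in DNA replication and in the S phase of the cell cycle. They were chosen by name, with earlier results of these data known, and each matched exactly 1 row of both deposited tables, out of 52636 genes listed. In airway smooth muscle cells (SMCs), 34 of the 43 members that could be tested were higher with Klf4 knockdown and 0 were lower, beside 15.6% and 12.9% of all genes. In lung PDGFR-β+ cells, 11 of 43 were higher and 2 were lower, beside 25.3% and 15.3% of all genes, so that the share that rose was close to that of all genes; the ribonucleotide reductase subunit gene Rrm2 was among those that fell. In Scr-treated cells, 39 of the 43 had lower levels in SMCs than in the lung cells and none was higher, beside 25.9% and 25.5% of all genes.

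Bulk RNA-seq was done on 12 libraries, 3 in each of 4 groups. The SMCs are a commercial C57BL/6 mouse culture, named lung airway SMCs in the sample titles and tracheal smooth muscle cells in the source field, of wild-type genotype and with no age given. The PDGFR-β+ cells came from lungs of 12-week-old mice; the labels give them as C57BL/6 and wild type, whereas the methods of the study describe sorted, cultured Zs+ cells from tamoxifen-induced Pdgfrb-CreERT2, ROSA26R(Zs/+) mice, in which the Pdgfrb promoter drives the recombinase. Each cell type received Scr, a scrambled control RNA, or siKlf4, a small interfering RNA against the Klf4 transcript, at 50 nM for 6 h, and was cultured for 72 h. All 4 groups therefore shared serum starvation and transfection, and no group was left untransfected. The methods place both cell types in supplemented SMC medium, with serum, EGF and FGF, for those 72 h. The PDGFR-β+ cells were otherwise grown in low glucose DMEM with serum. The methods of the study speak of independent experiments, and its reporting summary of at least 3 biological repeats. The labels do not say which libraries came from separate cultures or animals. The p-values therefore measure the spread between these libraries, which may be technical. Among the SMC columns, 1 of each treatment has no number; below, SMC values are given in the order unnumbered, 2 and 3, and PDGFR-β+ values in the order 1, 2 and 3, and where 2 groups are set against each other the Scr values come first.

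Replication is prepared in G1, when ORC, CDC6 and CDT1 load the MCM2 to MCM7 helicase onto origins, a step called licensing. At the onset of S phase CDC45, the GINS complex and MCM10 turn the loaded helicase into a moving one, polymerase α with its primase starts each strand, and polymerases δ and ε extend it behind the PCNA clamp, which the RFC complex loads. Ribonucleotide reductase, thymidylate synthase and thymidine kinase supply the deoxynucleotides. Most of these genes are known targets of E2F transcription factors and are transcribed around the G1/S boundary, so their RNA is low in resting cells. KLF4 is a zinc finger transcription factor known for restraining the cell cycle in several epithelia.

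The values are in TPM, in which transcript abundance is divided by length and each library is scaled to a sum of 1000000, so that levels of different genes can be set side by side. Differences are log2 fold changes of log2(TPM + 1) with their standard errors (SE), tested by limma with Benjamini-Hochberg adjustment over all genes whose mean reached 1 TPM; a member passed with an adjusted p under 0.05. TPM keeps no depth. Klf4 was 89.6, 96.3 and 95.03 TPM in Scr-treated SMCs and 26.5, 16.3 and 18.8 TPM with siKlf4. The PDGFR-β+ values of Klf4 were 144, 146 and 134 TPM for Scr and 12.3, 13.8 and 12.8 TPM for siKlf4, so every siKlf4 library lay below every Scr library. Among markers, Acta2, the smooth muscle actin gene, was 1031 to 1567 TPM in Scr-treated SMCs and 3969 to 4594 TPM in Scr-treated PDGFR-β+ cells. Pdgfrb was 213 to 216 and 423 to 474 TPM. Both were thus higher in the PDGFR-β+ cells, as were Myh11, Tagln, Cnn1, Lmod1, Col1a1, Cspg4 and Rgs5, whereas Smtn and Des did not pass. The fibroblast markers Dcn and Pdgfra were higher in Scr-treated SMCs, by 2.51 ± 0.32 and 1.29 ± 0.15 on the log2 scale (SE, limma, adjusted p = 4.7e-05 and 2.1e-05). The 6 epithelial markers summed to at most 1.03 TPM in any library, with Sftpc at 0 in all 12, and the 5 endothelial markers to between 0.782 and 17.2 TPM, with Tie1 at 0 in all 12. With siKlf4 in SMCs, 6 of 7 smooth muscle markers rose (summed level 1495 to 2284 TPM with Scr, 3410 to 4174 TPM with siKlf4) and 1 of the 3 tested of 6 macrophage and leukocyte markers fell (45.5 to 49.5 TPM against 24.8 to 29.6 TPM). Kdr, the 1 endothelial marker that could be tested in SMCs, rose there (0.502 to 0.798 against 2.69 to 3.12 TPM, 1.22 ± 0.15 on the log2 scale, SE; limma, adjusted p = 0.00234), with a summed endothelial level of 0.782 to 1.76 against 3.28 to 3.73 TPM, and 1 of 6 fibroblast and mural markers, Cspg4, fell (-0.53 ± 0.14, adjusted p = 0.0311; list sum 1923 to 2293 against 1767 to 2043 TPM). With siKlf4 in PDGFR-β+ cells, 3 smooth muscle markers rose and 3 fell (5551 to 6408 TPM against 4708 to 5002 TPM), 3 of 6 fibroblast and mural markers fell (2446 to 2862 TPM against 1628 to 2197 TPM), and of 4 tested leukocyte markers 1 rose and 2 fell (35.4 to 36.95 TPM against 29.00 to 33.8 TPM); the part of these markers in the results below was not tested. A change in the share of cells in S phase and a change in RNA of these genes per cell cannot be told apart in bulk samples.

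With siKlf4 in SMCs, 34 members rose and 0 fell among 43 tested, with a median log2 fold change of 0.58, beside 0.02 over all 13709 genes tested. Of all genes, 15.6% were higher and 12.9% were lower. At an unadjusted p under 0.05, limma gave 35 members higher and 0 lower. In 37 of the 43 members all 3 siKlf4 libraries lay above all 3 Scr libraries, and in 0 they lay below, beside 25.6% and 21.5% of all genes. The only negative value was that of E2f1. Of the 34 calls, 20 held whichever of the 6 SMC libraries was left out; without siKlf4 library 2 the count was 21, the lowest, and from the 4 numbered libraries alone it was 24. Beside those named under their roles, the calls of Cdc45, Gins3, Prim1 and Rfc3 were lost without at least 1 library (adjusted p up to 0.111, 0.0931, 0.0916 and 0.0616, limma), each of them without siKlf4 library 2. A log2 value of 1 or more was reached by 5 of the members called, Mcm5, Ccne2, Uhrf1, Tk1 and Chaf1b.

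In PDGFR-β+ cells, 11 members rose with siKlf4 (Mcm2, Mcm3, Mcm4, Mcm6, Gins3, Pola1, Pola2, Pold1, Pcna, Rfc2 and Slbp), 2 fell (Rrm2 and Rfc5) and 30 did not pass. The median log2 fold change of the 43 members was 0.17, beside 0.10 over all 13694 genes tested, of which 25.3% were higher and 15.3% lower. The share of members that rose was therefore close to that of all genes. Groups did not overlap in 13 members with siKlf4 above and 2 with siKlf4 below, beside 33.9% and 19.8% of all genes. Median-ratio scaling, which sets the typical gene to no change, shifted the median of all genes by 0.1 and turned their calls from 3461 higher and 2098 lower into 2639 and 2977; under it 9 members were higher and 3 lower. Without siKlf4 library 2 the number of members that rose was 7, and without Scr library 2 it was 14. Scr library 2 held the highest value of its group for 32 of the 44 members, beside 36.8% of all genes, and Scr library 3 the lowest for 38, beside 46.6%.

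Of the 34 members that rose in SMCs, 9 also rose in PDGFR-β+ cells, which is 26.5% of the first list and 81.8% of the second. The first share was close to the 25.3% of all genes that rose in PDGFR-β+ cells. The second is to be read against the 34 of all 43 tested members that rose in SMCs. Pold1 and Rfc2 passed in PDGFR-β+ cells only, and Rrm2 and Rfc5 rose in SMCs and fell in PDGFR-β+ cells. The 7 others of the tested members (Pole, Pole2, Fen1, Tyms, Dut, Ccne1 and E2f1) passed in neither. E2f2, the remaining member, lay under the limit in both cell types and was not tested; it was listed at 0.306, 0.184 and 0.259 TPM with Scr against 0.391, 0.459 and 0.267 TPM with siKlf4 in SMCs, and at 0.554, 0.456 and 0.373 TPM with Scr against 0.651, 1.51 and 1.19 TPM with siKlf4 in PDGFR-β+ cells. All 3 siKlf4 values of E2f2 were above the Scr values in PDGFR-β+ cells, and in SMCs 2 of them were above all Scr values, at levels where few reads decide a value.

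**Figure D1:**
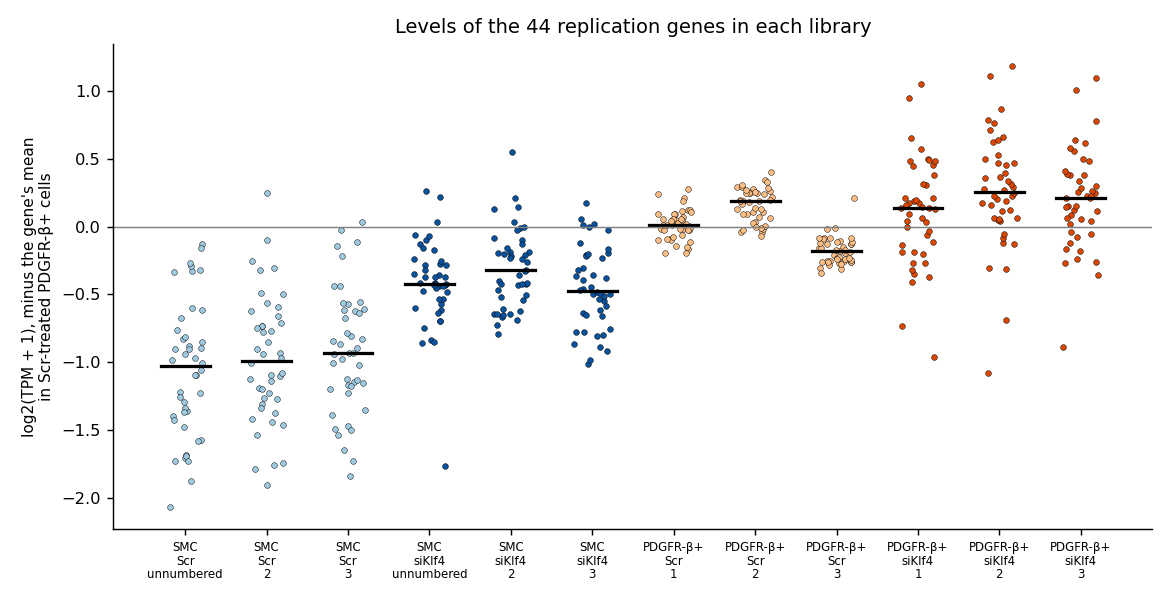
Level of each of the 44 members (points) in each of the 12 libraries, as log2(TPM + 1) minus the mean of that gene in the 3 Scr-treated PDGFR-β+ libraries; the bar is the median of the 44 members and the horizontal line marks no difference. The medians were -1.03, -0.99 and -0.93 in Scr-treated SMCs, -0.42, -0.32 and -0.47 in siKlf4-treated SMCs, and 0.14, 0.26 and 0.21 in siKlf4-treated PDGFR-β+ cells.

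The promoters are shown because most members rose together in SMCs. Members were chosen by name and not by promoter letters. Most of these genes are known E2F targets, however, so their share of E2F-type letters is not independent of that choice. RefSeq promoter windows (GRCm38.p6, from 250 bases before to 50 after the start site) were found for 37 of the 44 members, 43 windows in all. E2F-type letters (TTTCCCGC, TTTGGCGC, TTTCGCGC or TTTGCCGC, either strand) stood in 15 of the 43 windows, or 34.9%, each of a different gene, beside 2.26% of all 32851 windows in the table. CCAAT, the letters read by NF-Y, stood in 58.1% of the members' windows and in 37.4% of all. The letters TTTGAA, known as CHR, stood in 14.0% and 17.9%, and KLF-type letters (GGGTGTGG or GGGCGTGG) in 16.3% and 8.58%. A match describes the letters and is not a bound site. Of these, 6 windows are printed below without their last 20 bases, on the strand of the gene. Mcm5, Mcm6, Cdc6, Pola1 and Uhrf1 are shown as members that rose in SMCs and hold E2F-type letters, which are in capitals; overlapping matches run together. Another window of Uhrf1, nearer to the start of the gene, holds no E2F-type letters and is not printed. Rrm2 is shown for its fall in PDGFR-β+ cells. It holds no E2F-type letters in this window, and its capitals mark the KLF-type match. The printed Uhrf1 window also holds KLF-type letters (GGGCGTGG), which are left in lower case. The windows lie at chr8:75109259-75109538 (plus strand), chr1:128359676-128359955 (minus), chr11:98907901-98908180 (plus), chrX:93632126-93632405 (minus), chr17:56304063-56304342 (plus) and chr12:24708004-24708283 (plus).
Mcm5: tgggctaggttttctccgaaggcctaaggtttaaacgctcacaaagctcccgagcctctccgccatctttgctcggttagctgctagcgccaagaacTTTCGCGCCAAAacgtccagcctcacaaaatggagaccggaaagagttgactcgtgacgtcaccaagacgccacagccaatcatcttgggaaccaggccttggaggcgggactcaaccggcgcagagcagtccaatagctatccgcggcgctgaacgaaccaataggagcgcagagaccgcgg
Mcm6: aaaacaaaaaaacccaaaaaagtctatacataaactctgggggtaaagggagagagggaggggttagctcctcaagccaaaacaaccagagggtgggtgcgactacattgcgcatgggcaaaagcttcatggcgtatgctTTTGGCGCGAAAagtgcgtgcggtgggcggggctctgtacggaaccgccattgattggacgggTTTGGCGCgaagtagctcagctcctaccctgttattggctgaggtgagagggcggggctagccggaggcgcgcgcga
Cdc6: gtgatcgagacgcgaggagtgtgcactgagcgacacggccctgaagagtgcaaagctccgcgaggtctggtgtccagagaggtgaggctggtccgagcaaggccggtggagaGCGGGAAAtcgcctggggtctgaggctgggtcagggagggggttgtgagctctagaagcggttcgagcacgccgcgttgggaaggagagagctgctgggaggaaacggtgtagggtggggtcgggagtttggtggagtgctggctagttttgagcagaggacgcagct
Pola1: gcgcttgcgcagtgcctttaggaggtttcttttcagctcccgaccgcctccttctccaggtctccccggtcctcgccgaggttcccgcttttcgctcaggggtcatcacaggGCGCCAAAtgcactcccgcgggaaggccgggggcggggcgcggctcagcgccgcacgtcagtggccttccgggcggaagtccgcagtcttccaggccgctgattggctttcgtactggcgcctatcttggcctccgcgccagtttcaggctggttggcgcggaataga
Uhrf1: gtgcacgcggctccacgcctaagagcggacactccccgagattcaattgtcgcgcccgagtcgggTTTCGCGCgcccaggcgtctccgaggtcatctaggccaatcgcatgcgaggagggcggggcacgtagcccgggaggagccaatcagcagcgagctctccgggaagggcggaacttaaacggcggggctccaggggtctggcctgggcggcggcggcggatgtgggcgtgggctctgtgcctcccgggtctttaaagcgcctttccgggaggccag
Rrm2: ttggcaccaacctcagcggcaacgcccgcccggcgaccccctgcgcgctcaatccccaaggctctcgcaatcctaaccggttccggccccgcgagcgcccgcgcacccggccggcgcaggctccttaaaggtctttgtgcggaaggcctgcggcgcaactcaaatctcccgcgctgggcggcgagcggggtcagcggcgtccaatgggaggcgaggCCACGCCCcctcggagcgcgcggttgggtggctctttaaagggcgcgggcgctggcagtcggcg

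Calls were set beside these letters for the 36 tested members with a window. In SMCs, 12 of 14 members with E2F-type letters rose, as did 17 of 22 without them. All 21 members with CCAAT rose in SMCs, as did 8 of 15 without it. For KLF-type letters the counts were 5 of 7 with and 24 of 29 without. In PDGFR-β+ cells 5 of 14 members with E2F-type letters and 4 of 22 without them rose. With CCAAT 7 of 21 rose there and without it 2 of 15. Among members with KLF-type letters 0 of 7 rose there and 1, Rrm2, fell, and among those without them 9 of 29 rose and 1 fell. Windows of the other 7 members (Exo1, Gins2, Pole, Ccne2, Mcm4, Rfc2 and Gins1) were not analysed here. Of all genes, 15.6% rose in SMCs, and 25.3% rose and 15.3% fell in PDGFR-β+ cells. No test was made of these counts.

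**Figure D2:**
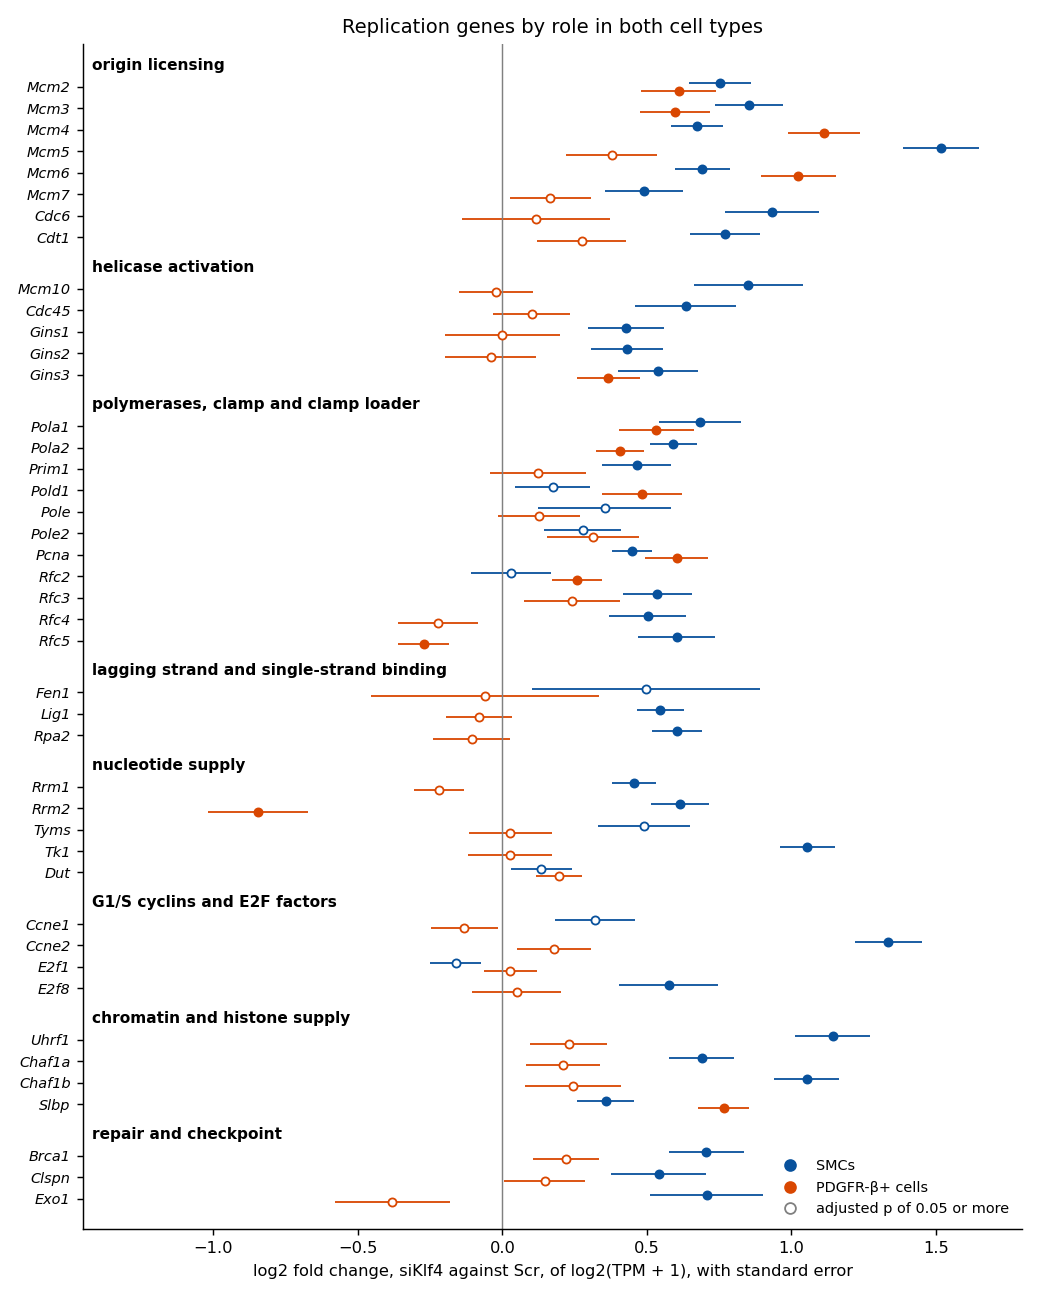
Log2 fold change with siKlf4 (x axis) with its SE for the 43 tested members, grouped by role, in SMCs (blue) and PDGFR-β+ cells (orange); filled points passed an adjusted p of 0.05 and open points did not. In SMCs 42 of the 43 points lie above 0, and in PDGFR-β+ cells 31 do.

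All counts by role are to be read against the shares of all genes. These were 15.6% higher and 12.9% lower in SMCs, and 25.3% higher and 15.3% lower in PDGFR-β+ cells. With so few genes in a role, small counts in PDGFR-β+ cells can lie near those shares. Origin licensing held the largest share of calls in common. All 8 licensing genes rose in SMCs, with a median log2 fold change of 0.76, and 4 of them (Mcm2, Mcm3, Mcm4 and Mcm6) rose in PDGFR-β+ cells, where the median of the 8 was 0.49. Mcm5 (chr8:75109569-75128439, GRCm38), a subunit at the gate of the helicase ring, was 5.66, 7.34 and 7.91 TPM in Scr-treated SMCs and 20.8, 23.5 and 20.8 TPM with siKlf4. Its groups were far apart and it had the highest fold change of all members in SMCs, 1.52 ± 0.13 (SE; limma, adjusted p = 0.000997). In PDGFR-β+ cells Mcm5 was 25.1, 34.5 and 22.5 TPM with Scr against 33.5, 39.3 and 33.3 TPM with siKlf4. There the groups overlapped through Scr library 2, and the fold change of 0.38 ± 0.16 did not pass (adjusted p = 0.0925, limma; 0.00938 without Scr library 2).

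Mcm4 (chr16:15623897-15637400), a catalytic subunit of the same ring, showed the reverse order of cell types. It was 44.9, 58.3 and 41.7 TPM in Scr-treated PDGFR-β+ cells and 100.3, 109.9 and 103 TPM with siKlf4, a ratio of means of 2.17 and a log2 fold change of 1.11 ± 0.12 (SE; limma, adjusted p = 0.000493). In SMCs it was 26.1, 25.05 and 23.3 TPM with Scr against 42.3, 41.9 and 36.6 TPM with siKlf4, a log2 fold change of 0.67 ± 0.09 (adjusted p = 0.00303, limma). Groups did not overlap in either cell type. Mcm6, its partner in the ring, was 32.6 to 47.02 TPM with Scr and 76.1 to 85.4 TPM with siKlf4 in PDGFR-β+ cells, and 17.3 to 20.7 and 30.4 to 33.97 TPM in SMCs. The difference between the cell types did not pass for Mcm4 (-0.44 ± 0.16 as SMC effect minus PDGFR-β+ effect, adjusted p = 0.0543, limma) or Mcm6 (adjusted p = 0.154); without PDGFR-β+ Scr library 2 the adjusted p-values were 0.00443 and 0.0283.

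Mcm2 and Mcm3 rose in both, by 0.75 and 0.85 on the log2 scale in SMCs and by 0.61 and 0.60 in PDGFR-β+ cells, with differences of 0.14 ± 0.18 and 0.26 ± 0.18 (SE) that did not pass. Mcm7 had the lowest fold change of the licensing genes in SMCs, 0.49 ± 0.14 on the log2 scale, from 23.8, 22.7 and 28.2 TPM against 31.6, 42.3 and 32.7 TPM (SE; limma, adjusted p = 0.0347). That call was lost without Scr library unnumbered or 2 or without siKlf4 library 2 or 3 (adjusted p from 0.0637 to 0.105). Exons of Mcm7 overlap those of Cops6 and Ap4m1 on the opposite strand, which in PDGFR-β+ cells had log2 fold changes of -0.61 and 0.58, and the strand setting of the counting was not stated. The 6 subunits of the ring are assembled in equal numbers, and their RNA levels were compared within libraries. In Scr-treated SMCs the most abundant subunit exceeded the least abundant by 3.41 to 4.61 times, and Mcm5 was the lowest in all 3 libraries. With siKlf4 the ratio was 1.86 to 2.04. In PDGFR-β+ cells it went the other way, from 1.69 to 1.86 with Scr to 2.79 to 3.10 with siKlf4, with Mcm4 highest and Mcm5 lowest in each of the 6 libraries. The ranges did not overlap in either cell type.

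**Figure D3:**
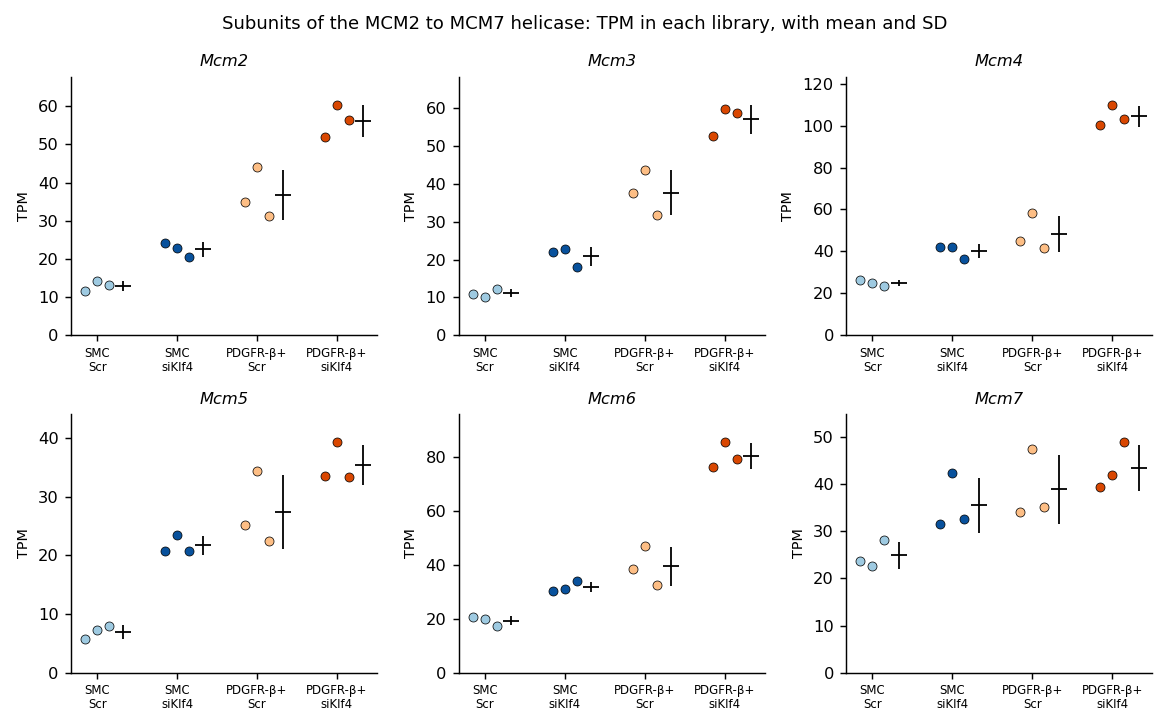
TPM of the 6 MCM subunits (y axis, from 0) in each library by group (points), with the mean and SD of the 3 libraries beside them. Mcm5 stands apart between Scr and siKlf4 in SMCs (5.66 to 7.91 against 20.8 to 23.5 TPM), and Mcm4 in PDGFR-β+ cells (41.7 to 58.3 against 100.3 to 109.9 TPM).

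The loading factors Cdc6 and Cdt1 rose in SMCs. Cdc6 (chr11:98907801-98923940), the ATPase that brings the helicase to ORC, was 1.86, 1.36 and 1.76 TPM in Scr and 4.86, 4.098 and 3.33 TPM in siKlf4 libraries, a log2 fold change of 0.93 ± 0.16 (SE; limma, adjusted p = 0.00728). In PDGFR-β+ cells it was 6.398, 4.96 and 4.18 TPM with Scr against 3.74, 8.44 and 5.504 TPM with siKlf4; the groups overlapped, and the siKlf4 values spread over more than the Scr values. Cdt1 was 3.96 to 4.98 TPM with Scr against 7.55 to 8.89 TPM with siKlf4 in SMCs, a rise of 0.77.

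All 5 helicase activation genes rose in SMCs, and 1 of them, Gins3, rose in PDGFR-β+ cells, where the median log2 fold change of the 5 was -0.00042. Mcm10, which joins the helicase to polymerase α, was 1.59, 2.96 and 2.45 TPM in Scr-treated SMCs and 4.79, 4.33 and 5.71 TPM with siKlf4, a log2 fold change of 0.85 ± 0.19 (SE; limma, adjusted p = 0.0165; 0.0607 without siKlf4 library 3). In PDGFR-β+ cells the Mcm10 values of 7.396, 6.91 and 5.98 TPM in Scr and 5.71, 7.37 and 6.86 TPM in siKlf4 libraries overlapped. Gins1 had the smallest rise of the group in SMCs, with 4.71, 3.51 and 3.68 TPM with Scr against 5.55, 5.41 and 5.999 TPM (0.43, adjusted p = 0.0485, limma), and kept its call only without Scr library unnumbered among the fits with a library left out (0.094 to 0.143 in the others). Gins2 rose by 0.43 in SMCs and lost its call without any 1 of the 6 libraries (adjusted p from 0.0589 to 0.121). In PDGFR-β+ cells Gins2 was 10.53, 12.01 and 14.2 TPM in Scr and 9.55, 12.6 and 13.6 TPM in siKlf4 libraries, which overlapped, and had the lowest fold change of its group there (-0.04). Gins3 rose in PDGFR-β+ cells from 5.33, 6.2 and 5.69 to 8.19, 7.88 and 7.01 TPM (0.37 ± 0.11, adjusted p = 0.0308, limma), a call lost without Scr library 1 or 3 or siKlf4 library 1 or 2 (adjusted p from 0.0684 to 0.0973) and under median-ratio scaling (0.0702). Cdc45 overlaps exons of Ufd1 on the opposite strand, which passed in neither cell type. Exons of Gins2 overlap those of Gse1 on the opposite strand, with a mean of 15.5 TPM in SMCs. There Gse1 rose by 0.37 on the log2 scale (adjusted p = 0.0324, limma). In PDGFR-β+ cells Gse1 did not pass (0.52, adjusted p = 0.0512, limma).

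Of the 11 genes for polymerases, clamp and clamp loader, 7 rose in SMCs and 5 rose and 1 fell in PDGFR-β+ cells, with median log2 fold changes of 0.46 and 0.26. The polymerase α genes Pola1 and Pola2 rose in both cell types. Pola1 (chrX:93304767-93632155), its catalytic subunit, was 5.45, 4.45 and 3.92 TPM in Scr and 8.87, 7.98 and 7.07 TPM in siKlf4 libraries in SMCs, and 13.5, 14.7 and 10.52 TPM with Scr against 17.97, 20.5 and 18.6 TPM with siKlf4 in PDGFR-β+ cells. The groups did not overlap in either cell type, and the fold changes were 0.68 ± 0.14 and 0.53 ± 0.13 on the log2 scale (SE; limma, adjusted p = 0.0133 and 0.0147). In PDGFR-β+ cells the adjusted p was 0.0549 without siKlf4 library 2. Pola2, the regulatory subunit, rose by 0.59 and 0.41, and Prim1, the catalytic primase subunit, rose by 0.46 in SMCs and passed there only.

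None of the 3 members for polymerases δ and ε passed in SMCs, where their fold changes were positive. Pold1, the catalytic subunit of polymerase δ, was 11.6 to 15.4 TPM with Scr against 13.3 to 15.5 TPM with siKlf4 in SMCs, which overlapped, whereas in PDGFR-β+ cells it was 10.4 to 15.4 TPM with Scr and 16.97 to 19.5 TPM with siKlf4 (0.48 ± 0.14, adjusted p = 0.0273, limma). This call was lost without Scr library 1 or 3 or siKlf4 library 1 or 2 (adjusted p from 0.0560 to 0.0810). The difference between the cell types did not pass (adjusted p = 0.252, limma). Pole and Pole2, of polymerase ε, had log2 fold changes of 0.35 ± 0.23 and 0.28 ± 0.13 in SMCs and passed in neither cell type, although Pole passed in SMCs without Scr library 3 (adjusted p = 0.0383) and Pole2 in PDGFR-β+ cells without Scr library 2 (0.0326).

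Pcna (chr2:132249162-132253314), the sliding clamp and the most abundant member, was 58.6, 56.8 and 58.6 TPM in Scr-treated SMCs, 84.8, 79.2 and 74.9 TPM in siKlf4-treated SMCs, 103, 125 and 104 TPM in Scr-treated PDGFR-β+ cells and 155, 188 and 162 TPM in siKlf4-treated PDGFR-β+ cells. It rose by 0.45 ± 0.07 and 0.60 ± 0.11 on the log2 scale (SE; limma, adjusted p = 0.00527 and 0.00388), the highest fold change of this role in PDGFR-β+ cells.

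The clamp loader genes split between the cell types. In SMCs Rfc3, Rfc4 and Rfc5 rose, by 0.54, 0.50 and 0.60 (Rfc5 with adjusted p = 0.0579 without siKlf4 library 2, limma), and Rfc2 had the lowest fold change of the role, 0.03 ± 0.14, which did not pass, from 14.3, 14.4 and 16.4 TPM against 13.1, 18.7 and 14.5 TPM. In PDGFR-β+ cells Rfc2 was 18.3, 18.3 and 17.95 TPM in Scr and 21.2, 20.6 and 24.2 TPM in siKlf4 libraries. Its rise of 0.26 ± 0.09 (adjusted p = 0.0485, limma) was lost without any 1 of the 6 libraries (0.0643 to 0.154) and under median-ratio scaling (0.224). Rfc5 was 6.103, 7.204 and 7.83 TPM with Scr against 10.9, 12.9 and 9.95 TPM with siKlf4 in SMCs, and 13.97, 12.98 and 12.3 TPM with Scr against 10.7, 10.4 and 10.9 TPM with siKlf4 in PDGFR-β+ cells. The Rfc5 groups did not overlap in either cell type, above Scr in SMCs and below it in PDGFR-β+ cells. The fall of -0.27 ± 0.09 (adjusted p = 0.0437, limma) passed only without Scr library 3 among the 6 fits with a library left out (0.0747 to 0.140 in the other 5). Rfc4 was 10.2, 10.48 and 12.5 TPM with Scr against 14.9, 19.00 and 14.5 TPM with siKlf4 in SMCs and 13.9, 12.3 and 11.9 TPM with Scr against 9.29, 10.03 and 13.2 TPM with siKlf4 in PDGFR-β+ cells, where the groups overlapped. The SMC call of Rfc4 was lost without Scr library unnumbered or 2 or siKlf4 library 2 or 3 (0.0506 to 0.0903). Exons of Rfc4 and Rfc5 overlap those of Eif4a2 and Wsb2 on the opposite strand, with the same limit; in SMCs Eif4a2 fell by 0.46 and Wsb2 rose by 0.53 on the log2 scale.

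The genes for the lagging strand and for single-strand binding rose in SMCs in 2 of 3 cases and passed in 0 of 3 in PDGFR-β+ cells. Rpa2, the middle subunit of the single-strand binding protein RPA, was 9.96, 10.46 and 11.4 TPM in Scr-treated SMCs and 16.3, 16.9 and 16.7 TPM with siKlf4, a log2 fold change of 0.60 ± 0.09 (SE; limma, adjusted p = 0.00402). In PDGFR-β+ cells its values of 21.2, 19.1 and 14.9 TPM with Scr against 18.2, 16.6 and 15.9 TPM with siKlf4 overlapped. Lig1, the ligase that seals Okazaki fragments, was 14.1, 12.7 and 13.3 TPM with Scr against 20.1, 20.4 and 19.3 TPM with siKlf4 in SMCs and 27.4, 31.9 and 24.9 TPM with Scr against 24.4, 29.2 and 25.6 TPM with siKlf4 in PDGFR-β+ cells, so it stood apart in SMCs alone. Fen1, the flap endonuclease, was 5.67, 9.17 and 8.799 TPM with Scr against 5.402, 17.5 and 14.8 TPM with siKlf4 in SMCs and 21.6, 24.03 and 17.3 TPM with Scr against 29.7, 9.29 and 28.1 TPM with siKlf4 in PDGFR-β+ cells. In each cell type 1 siKlf4 library of Fen1 lay far below the other 2. Without siKlf4 library unnumbered, Fen1 passed in SMCs (adjusted p = 0.0245, limma); in PDGFR-β+ cells its fold change was -0.06 with all libraries and 0.55 without both libraries numbered 2 (adjusted p = 0.0348), a choice made after seeing the data. Fen1 overlaps exons of the abundant gene Tmem258 on the opposite strand.

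In nucleotide supply 3 of 5 genes rose in SMCs, with a median log2 fold change of 0.49, and in PDGFR-β+ cells none rose and 1 fell, with a median of 0.03 (-0.08 under median-ratio scaling). The median difference between the cell types was 0.68 for nucleotide supply, 0.64 for chromatin and histone supply, 0.63 for the lagging strand, 0.49 for cyclins and E2F factors, 0.49 for repair, 0.47 for helicase activation, 0.29 for licensing and 0.18 for the polymerase genes. Tk1 (chr11:117815526-117826092), the thymidine kinase of the salvage pathway, was 6.95, 7.84 and 8.25 TPM in Scr-treated SMCs and 16.7, 17.1 and 17.3 TPM with siKlf4, and these groups were far apart (1.06 ± 0.09 on the log2 scale, SE; limma, adjusted p = 0.00101). In PDGFR-β+ cells Tk1 was 24.4, 29.4 and 20.8 TPM with Scr against 25.7, 28.1 and 21.8 TPM with siKlf4, with overlapping groups and a log2 fold change of 0.03 ± 0.14.

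Rrm2 (chr12:24708241-24714146), the small and cell cycle regulated subunit of ribonucleotide reductase, moved in opposite directions. In SMCs it was 30.8, 30.5 and 32.2 TPM in Scr and 45.9, 55.5 and 44.1 TPM in siKlf4 libraries. In PDGFR-β+ cells it was 67.8, 99.5 and 62.3 TPM in Scr and 37.98, 46.1 and 40.1 TPM in siKlf4 libraries. No groups overlapped within a cell type: Rrm2 rose by 0.62 ± 0.10 in SMCs (SE; limma, adjusted p = 0.00577) and its log2 fold change in PDGFR-β+ cells was -0.84 ± 0.17 (adjusted p = 0.00719). Both calls held whichever library was left out. The siKlf4 values of the cell types, 44.1 to 55.5 TPM in SMCs and 38.0 to 46.1 TPM in PDGFR-β+ cells, overlapped, whereas the Scr values did not.

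Rrm1, the large subunit, followed in SMCs, with 54.7, 54.5 and 57.6 TPM with Scr against 82.5, 76.8 and 70.9 TPM with siKlf4. In PDGFR-β+ cells it was 111, 121 and 101 TPM with Scr against 91.9, 102 and 91.6 TPM with siKlf4, which overlapped (-0.22 ± 0.09, adjusted p = 0.0811, limma; 0.0439 without Scr library 3 and 0.0142 under median-ratio scaling). The ratio of Rrm1 to Rrm2 was 1.22 to 1.63 in Scr-treated and 2.21 to 2.42 in siKlf4-treated PDGFR-β+ cells, and in SMCs it was 1.78 to 1.79 with Scr and, with an overlapping range, 1.384 to 1.8 with siKlf4. Tyms, thymidylate synthase, was 8.56, 9.49 and 12.2 TPM with Scr against 12.3, 14.4 and 16.9 TPM with siKlf4 in SMCs and just missed the threshold (adjusted p = 0.058, limma). Dut, which removes dUTP, had the lowest fold change of the role in SMCs, 0.14 ± 0.10, from 34.03, 38.5 and 42.2 TPM against 38.6, 45.7 and 41.9 TPM. Its fold change in PDGFR-β+ cells was the highest of the role, 0.20 ± 0.08, from 41.7, 44.03 and 38.3 TPM against 45.2, 47.7 and 49.5 TPM, and it passed in neither.

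**Figure D4:**
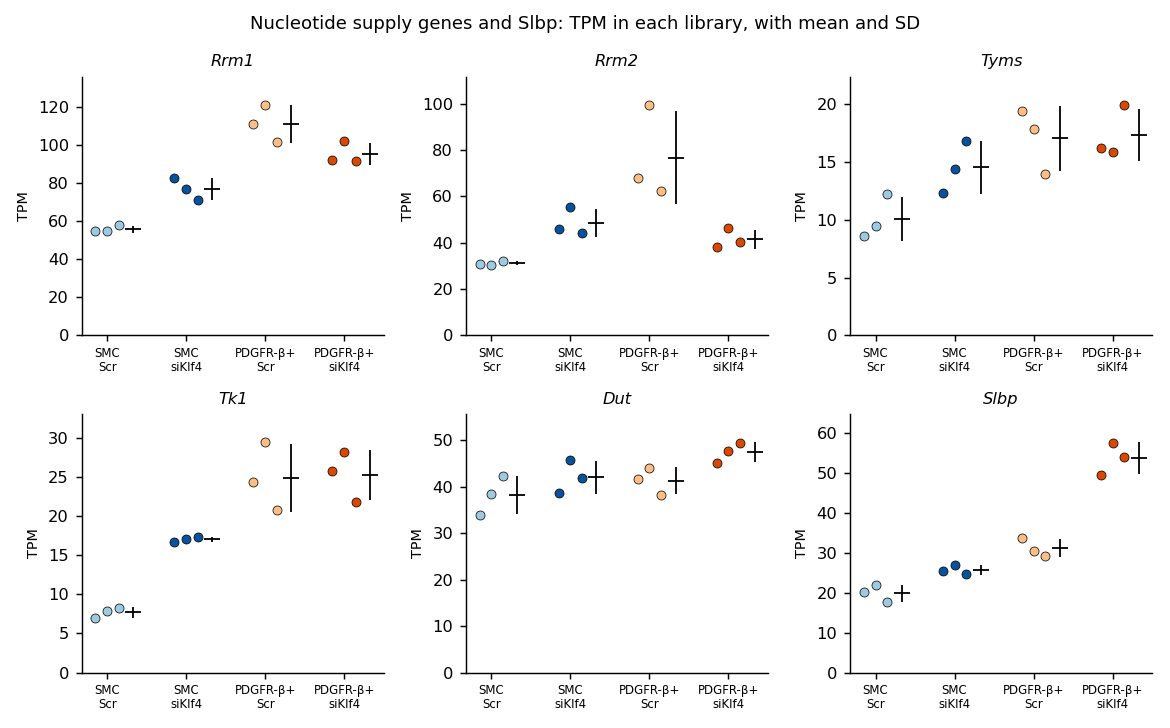
TPM of the 5 nucleotide supply genes and of Slbp (y axis, from 0) in each library by group (points), with the mean and SD of the 3 libraries beside them. Rrm2 lies higher with siKlf4 in SMCs (30.5 to 32.2 against 44.1 to 55.5 TPM) and lower with siKlf4 in PDGFR-β+ cells (62.3 to 99.5 against 38.0 to 46.1 TPM), and Slbp lies higher in both.

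Among the G1/S cyclins and E2F factors, 2 of 4 tested genes rose in SMCs and 0 of 4 passed in PDGFR-β+ cells. Ccne2 (chr4:11191351-11204779), a cyclin E that activates CDK2 at the G1/S transition, was 3.27, 3.18 and 2.95 TPM in Scr-treated SMCs and 10.4, 9.598 and 8.43 TPM with siKlf4. Its ratio of means was 3.02 and its log2 fold change 1.34 ± 0.12 (SE; limma, adjusted p = 0.000997). In PDGFR-β+ cells Ccne2 was 14.4, 13.4 and 11.7 TPM with Scr against 12.9, 17.1 and 15.3 TPM with siKlf4, overlapping and above every SMC library. Ccne1, the other cyclin E, was 15.8, 21.7 and 22.7 TPM with Scr against 24.1, 26.3 and 24.6 TPM with siKlf4 in SMCs, a difference that did not pass (0.32 ± 0.14, adjusted p = 0.127, limma) although the groups did not overlap, and 35.4, 36.7 and 30.1 TPM with Scr against 29.6, 35.3 and 28.2 TPM with siKlf4 in PDGFR-β+ cells. E2f1, an activator of S phase genes, was 25.2, 28.99 and 29.3 TPM in Scr and 23.5, 25.8 and 24.9 TPM in siKlf4 libraries in SMCs, a change of -0.16 ± 0.09 that did not pass, and 42.6, 47.9 and 40.05 TPM with Scr against 46.4, 45.3 and 41.2 TPM with siKlf4 in PDGFR-β+ cells. E2f8, a repressor of E2F targets that is itself made in S phase, rose in SMCs, with 1.42 to 1.95 TPM with Scr against 2.27 to 3.47 TPM (0.58, adjusted p = 0.0438, limma); this was lost in 5 of the 6 fits with a library left out, all but that without siKlf4 library 3 (adjusted p from 0.0560 to 0.126). Exons of Ccne2 overlap those of Ints8 on the opposite strand, which did not pass in either cell type. The same limit holds for Chaf1a, Tk1, Rfc2 and Lig1, which overlap exons of Ubxn6, Afmid, Lat2 and Zswim9 on the opposite strand. Ubxn6 (mean of 34.4 TPM in SMCs), Afmid and Lat2 passed in neither cell type, and Zswim9 had no value.

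All 4 genes of chromatin and histone supply rose in SMCs, with the highest median of the roles, 0.87, and 1 of 4 rose in PDGFR-β+ cells. Uhrf1 (chr17:56303321-56323486), which brings DNA methyltransferase to newly copied DNA, was 7.41, 10.3 and 9.903 TPM in Scr-treated SMCs and 21.8, 21.99 and 20.4 TPM with siKlf4 (1.14 ± 0.13, SE; limma, adjusted p = 0.00195). In PDGFR-β+ cells it was 29.4, 36.2 and 25.03 TPM with Scr against 32.9, 36.3 and 36.6 TPM with siKlf4, overlapping at the level of Scr library 2, and it passed there without that library (adjusted p = 0.0324). Chaf1b, a subunit of the histone chaperone CAF-1, was 4.84, 4.19 and 4.86 TPM with Scr against 10.99, 11.4 and 9.66 TPM with siKlf4 in SMCs and 18.6, 23.4 and 14.3 TPM with Scr against 20.6, 24.01 and 21.5 TPM with siKlf4 in PDGFR-β+ cells. Its partner Chaf1a rose from 10.2, 10.96 and 13.4 TPM to 19.3, 19.4 and 18.5 TPM in SMCs; its PDGFR-β+ values were 28.3, 29.7 and 21.8 TPM with Scr against 29.2, 33.6 and 29.2 TPM with siKlf4, with the lowest fold change of the role there (0.21).

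Slbp (chr5:33634952-33652574), the stem-loop binding protein needed to make histone mRNA, went against that order. It was 20.2, 21.9 and 17.6 TPM with Scr against 25.4, 27.00 and 24.7 TPM with siKlf4 in SMCs, the smallest rise of the role (0.36 ± 0.10, adjusted p = 0.0352, limma; lost in 5 of the 6 fits with a library left out, all but that without Scr library 2, with adjusted p from 0.0578 to 0.117). In PDGFR-β+ cells it was 33.6, 30.5 and 29.3 TPM with Scr against 49.5, 57.5 and 54.1 TPM with siKlf4, a log2 fold change of 0.77 ± 0.09 (SE; limma, adjusted p = 0.000574) that held without each library.

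The 3 repair and checkpoint genes rose in SMCs, with a median of 0.71, and none passed in PDGFR-β+ cells, where the median was 0.15. Exo1, an exonuclease of mismatch repair and end resection, was 1.11, 1.48 and 1.14 TPM with Scr against 2.02, 3.66 and 2.47 TPM with siKlf4 in SMCs, and 5.44, 4.21 and 3.85 TPM with Scr against 2.29, 4.25 and 3.27 TPM with siKlf4 in PDGFR-β+ cells. It stood above Scr in SMCs (0.71 ± 0.20, adjusted p = 0.0346, limma), a call lost in 5 of the 6 fits with a library left out, all but that without siKlf4 library unnumbered (0.0618 to 0.0973), and overlapped with it in PDGFR-β+ cells (-0.38 ± 0.20). Brca1, of homologous recombination, was 2.82, 2.5 and 2.9 TPM with Scr against 4.79, 5.85 and 4.71 TPM with siKlf4 in SMCs, a rise of 0.71 ± 0.13 (SE; limma, adjusted p = 0.00851). In PDGFR-β+ cells Brca1 was 6.78, 7.19 and 5.57 TPM with Scr against 7.66, 7.74 and 7.75 TPM with siKlf4; the groups did not overlap, but the difference did not pass (0.22 ± 0.11, adjusted p = 0.162). Clspn, which carries the checkpoint signal from stalled forks, had the smallest rise in SMCs, 3.76, 4.47 and 6.22 TPM against 7.43, 7.39 and 7.17 TPM (0.54 ± 0.16, adjusted p = 0.0462, limma; lost in 5 of the 6 fits with a library left out, all but that without Scr library 3, at 0.0924 to 0.123).

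The effect of siKlf4 was then compared between the cell types by an interaction term over the 12 libraries, for 13032 genes. It was higher in SMCs for 14 members and lower for 1, Slbp, with 28 not passed, beside 14.5% and 18.5% of all genes. The median of the 43 differences was 0.46 on the log2 scale, against -0.08 over all genes; under median-ratio scaling all genes split into 2412 higher and 2000 lower instead of 1886 and 2411, and the members into 16 and 0. The 14 were Mcm5, Mcm10, Rfc4, Rfc5, Lig1, Rpa2, Rrm1, Rrm2, Tk1, Ccne2, Uhrf1, Chaf1b, Brca1 and Exo1, so that each role had at least 1 of them. Rrm2 had the largest difference, 1.46 ± 0.22 (SE; limma, adjusted p = 0.000443), followed by Ccne2 with 1.16 ± 0.17 and Mcm5 with 1.14 ± 0.22. Licensing had 1 of 8 and polymerases, clamp and loader 2 of 11, against 3 of 5 for nucleotide supply and 2 of 3 for repair. All but Brca1 and Slbp held whichever of the 12 libraries was left out. Brca1 (0.49 ± 0.16, adjusted p = 0.0393, limma) was lost in 8 of these fits (0.0512 to 0.0946) and held without SMC Scr library 3, SMC siKlf4 library unnumbered or 3, or PDGFR-β+ Scr library 3. Slbp (-0.41 ± 0.13, adjusted p = 0.0331) was lost in 8 (0.0568 to 0.0800) and held without SMC Scr library 3, SMC siKlf4 library 2, PDGFR-β+ Scr library 1 or PDGFR-β+ siKlf4 library 1. The knockdown itself was deeper in PDGFR-β+ cells, with a Klf4 log2 fold change of -3.35 ± 0.08 against -2.16 ± 0.16 in SMCs (difference adjusted p = 0.00069, limma); its part in these differences was not tested.

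**Figure D5:**
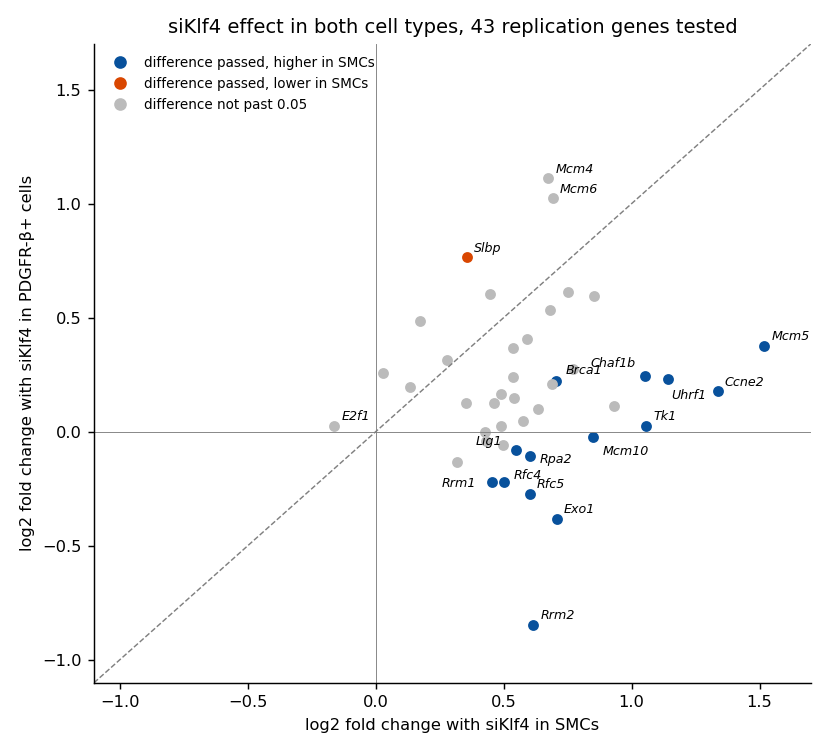
Log2 fold change with siKlf4 in SMCs (x axis) and in PDGFR-β+ cells (y axis) of the 43 tested members (points); the dashed line marks equal changes and colour marks members whose difference between the cell types passed. Mcm5 lies at 1.52 and 0.38, Rrm2 at 0.62 and -0.84, and Slbp, above the line, at 0.36 and 0.77.

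Scr-treated SMCs were compared with Scr-treated PDGFR-β+ cells, in which cell type, source, culture and deposited table cannot be told apart. None of the 43 members was higher in SMCs (0 also at an unadjusted p under 0.05, limma) and 39 were lower, with a median difference of -1.01, beside 25.5% and 25.9% of all genes and a median of 0.00. In 40 members all Scr-treated SMC libraries lay below all Scr-treated PDGFR-β+ libraries, beside 28.3% of all genes. The largest differences were in Mcm5 (-1.82 ± 0.15, SE; limma, adjusted p = 1.99e-06), Chaf1b (-1.79) and Ccne2 (-1.78). The 4 members that did not pass were Pold1, Rfc2, Rfc4 and Dut; Fen1 was lost without SMC Scr library unnumbered or PDGFR-β+ Scr library 1 or 2 (adjusted p from 0.0621 to 0.0868, limma) and Gins1 without SMC Scr library 2 or 3 or PDGFR-β+ Scr library 1 or 2 (0.0681 to 0.101). By role the medians ran from -1.37 for chromatin and histone supply and -1.23 for licensing to -0.78 for polymerases, clamp and loader. With siKlf4, SMCs still lay below Scr-treated PDGFR-β+ cells without overlap in 25 of the 43, beside 22.5% of all genes, overlapped in 17 and lay above in 1, Rfc4.

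Other genes of replication and mitosis were set beside the members. From a list of 50 further replication genes, 22 of 48 tested rose and 3 fell in SMCs, with a median of 0.38, beside 15.6% and 12.9% of all genes. In PDGFR-β+ cells 20 of 50 rose and 2 fell, with a median of 0.19, beside 25.3% and 15.3% of all genes. Under median-ratio scaling these were 15 and 4. The 3 highest in SMCs were Orc1, the largest origin recognition subunit (1.28 to 2.12 against 3.75 to 5.799 TPM, 0.98 ± 0.20), Asf1b, a histone chaperone (3.52 to 4.35 against 8.41 to 9.59 TPM, 0.96 ± 0.12), and E2f7, a repressor related to E2f8 (1.32 to 3.14 against 3.67 to 5.71 TPM, 0.90 ± 0.24). The 3 lowest were Pold4, a small polymerase δ subunit (80.7 to 93.1 against 37.6 to 39.8 TPM, -1.13 ± 0.08), Samhd1, which degrades deoxynucleotides (192 to 212 against 125 to 166 TPM, -0.53 ± 0.12), and Timeless, of the fork protection complex (-0.40 ± 0.23, not passed). Samhd1 went the other way in PDGFR-β+ cells, 105, 103 and 103 TPM against 208, 183 and 185 TPM (0.88 ± 0.07, difference between the cell types adjusted p = 3.51e-05, limma), the reverse of Rrm2 in each cell type. Rrm2b, of the same list, fell in both, by -0.36 ± 0.10 in SMCs and -0.29 ± 0.09 in PDGFR-β+ cells (SE, limma, adjusted p = 0.0411 and 0.0415). Of 10 mitosis genes, 9 rose in SMCs and 0 rose and 3 fell in PDGFR-β+ cells, to be read against the same shares of all genes; Mki67, the proliferation marker, was 11.6, 11.7 and 12.5 TPM with Scr against 31.5, 28.6 and 25.5 TPM with siKlf4 in SMCs and 44.8, 54.95 and 37.7 TPM with Scr against 28.1, 32.8 and 26.6 TPM with siKlf4 in PDGFR-β+ cells. Foxm1, a transcription factor of mitotic genes, was 6.54 to 10.2 TPM with Scr against 16.5 to 18.6 TPM with siKlf4 in SMCs and 17.1 to 20.8 TPM with Scr against 19.00 to 21.4 TPM with siKlf4 in PDGFR-β+ cells. Among the 43 members tested in PDGFR-β+ cells, 11 rose, 4 MCM genes, Pcna and Slbp among them, beside 25.3% of all genes. Of the others, 2 fell, Rrm2 being 1 of them, beside 15.3% of all genes, and 30 did not pass. Mki67 also fell there.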

How the data were processed

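RNA of 12 libraries was sequenced by the authors as strand-specific poly(A) libraries. The authors used HISAT2 for alignment to mm10, with genes from GENCODE, and StringTie for abundance. The deposited TPM values, 1 table per cell type, are scaled to a sum of 1000000 per library. The study states a target depth per sample, but the depth that each library reached is unknown here. Precision rests on 3 libraries per group. The GENCODE release and the strand setting of the counting are not given in the sources used here. The deposited tables were analysed as log2(TPM + 1) with limma 3.58.1 in R 4.3.3 (eBayes with a trend, two-sided, Benjamini-Hochberg adjustment over all genes averaging 1 TPM or more in the cell type's libraries, or in both cell types for the interaction and the Scr comparison). With 3 against 3 libraries an exact permutation test cannot go below 0.1 and was not used. Groups were taken from the labels. Members, roles and further lists were chosen with earlier results of these data known. Values in every library were given for Klf4, for members past the interaction threshold and for E2f2. They were also given for the member with the highest and the lowest fold change of each role in each cell type. Further members were given with values where a role's account needed them. Mki67, Foxm1, Acta2, Pdgfrb, Dcn, Pdgfra, Sftpc, Tie1, Kdr, Cspg4, Rrm2b and overlapping genes were given for context. Positions are from GENCODE M21 (GRCm38), and promoters from RefSeq (GRCm38.p6). The code was run on simulated data with independent noise in each gene and planted log2 changes of 1 in either direction. Most members changed by less, and genes that move together were not simulated, so that run does not show how well their calls hold. Alternatives were a pseudocount of 0.1, no filter, a minimum mean of 5 TPM, median-ratio and quantile scaling, eBayes without a trend, a single fit, a replicate block, the numbered SMC libraries only, each library left out, and an added limit of 1 on the log2 fold change. Without both PDGFR-β+ libraries numbered 2 was added after seeing the data.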

Additional observations from a re-analysis of the deposited data

Results flagged for a closer look

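In 15 members the interaction term of limma passed, a difference between SMCs and PDGFR-β+ cells in the change with siKlf4; each value is the effect in SMCs minus that in PDGFR-β+ cells on the log2 scale, with its adjusted p. Among licensing and helicase genes these were Mcm5 (1.14, 0.00212) and Mcm10 (0.87, 0.0135). In the clamp loader they were Rfc4 (0.73, 0.0165) and Rfc5 (0.88, 0.00144), and on the lagging strand Lig1 (0.63, 0.00538) and Rpa2 (0.71, 0.00598). Nucleotide supply gave Rrm1 (0.68, 0.00111), Rrm2 (1.46, 0.000443) and Tk1 (1.03, 0.0012). The others that were higher in SMCs were Ccne2 (1.16, 0.000414), Uhrf1 (0.91, 0.0041), Chaf1b (0.81, 0.0116), Brca1 (0.49, 0.0393) and Exo1 (1.09, 0.0135). Slbp (-0.41, 0.0331) was the member with the larger effect in PDGFR-β+ cells. Groups of 3 are too small for a test of single outlying libraries.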

How the results depend on the processing

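Of 2985 values of single members under an alternative, 2787 kept their direction and side of the threshold or changed sign without passing either way, 153 fell short of it, 44 newly passed and 1 reversed: Fen1 in PDGFR-β+ cells, 0.55 without both libraries numbered 2 (chosen after seeing the data). Members that rose in SMCs numbered 34, and 22 with no filter on low values, 21 to 30 with a library left out and 5 under an added fold limit of 1 on the log2 scale; 0 fell in any fit. In PDGFR-β+ cells 11 rose, 7 to 14 with a library left out and 2 at the fold limit; 2 fell, with 1 under no filter and without both libraries numbered 2, 1 to 3 with a library left out and 0 at the fold limit. Members with a higher effect in SMCs numbered 14, with 22 after quantile normalization and 5 at the fold limit. The single lower member became 0 under median-ratio scaling, quantile normalization, the numbered SMC libraries only and the fold limit, and 0 to 2 with a library left out. Members lower in Scr-treated SMCs numbered 39, and 23 at the fold limit. Fits at the fold limit are stricter by construction; otherwise the cause was not tested.

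With a replicate block, in which the unnumbered SMC libraries formed a level of their own, 33 members rose in SMCs, 11 rose and 2 fell in PDGFR-β+ cells, and 16 were higher and 2 lower in the interaction. The block changed single calls (adjusted p, limma): in SMCs Gins1 (0.0528) and E2f8 (0.0674) were lost and Tyms (0.0117) passed; in PDGFR-β+ cells Rfc2 (0.0653) and Rfc5 (0.0637) were lost and Mcm5 (0.0286) and Rrm1 (0.0404) passed; in the interaction Brca1 (0.063) was lost and Gins2 (0.0351), Ccne1 (0.0379), Chaf1a (0.0413) and, as lower, Mcm4 (0.0204) passed. Deviations of same-numbered libraries correlated at 0.19 and 0.20 in SMCs and at -0.02 to 0.07 in PDGFR-β+ cells, and the unnumbered SMC libraries at 0.36. Each SMC library correlated best with that of its own number, a hint from the data; with only 2 numbered pairs in SMCs, and values under 0.1 in PDGFR-β+ cells, the numbers were not taken as pairs. TPM gives no counting error, so members near 1 TPM, such as E2f2 and Exo1, are limited by a depth that is unknown here.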
